A study of Mus musculus with 18 samples.

Results

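Autosomal recessive primary microcephaly is a failure of the cerebral cortex to reach its size, and most of its known genes encode proteins of the centriole, the spindle pole, the kinetochore or the midbody. The 10 genes described here are Aspm, Wdr62, Cdk5rap2, Cenpj, Mcph1, Stil, Cep135, Cep152, Knl1 and Cit. They were taken by gene symbol from a table of 55416 genes, where each symbol stood in 1 row, and all passed the filter on low counts. They were chosen for their known roles in the disease and at the centrosome, with earlier results of these data known. RNA was sequenced from the neocortex of wild-type C57BL/6J mouse embryos at E14.5, whose brain hemispheres were kept for 24 h in rotating culture. Control cultures (Ctl) received no addition, and treated cultures (Epi) received human recombinant EPIREGULIN, a ligand of the EGF family, at 50 ng/mL. Afterwards 3 populations were taken from both: radial glia (RG), the intermediate progenitors (IP) born from them, and neurons (N). This gives 6 groups of 3 libraries labelled as biological replicates. The labels do not state by which marker or sort the cells were separated, or whether replicates came from separate litters. The p-values below set differences between group means against the spread between these libraries, and whether the libraries are independent is not known.

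Radial glia line the ventricle, keep their centrosome at its surface and divide there. Aspm and Wdr62 act at the spindle poles, and Aspm helps to hold the cleavage plane in neural stem cells. Centrioles are copied once per cycle by a cascade in which Cep63 places Cep152 at the mother centriole, Cep152 and Cep192 recruit the kinase Plk4, and Plk4 acts on Stil and Sass6, while Cenpj and Cep135 build the centriole wall. Cdk5rap2 organises the pericentriolar material with pericentrin (Pcnt), Mcph1 holds back chromosome condensation and mitotic entry, Knl1 is the scaffold of the outer kinetochore and Cit encodes citron kinase of the midbody. Cit also makes a shorter neuronal protein without the kinase domain, and counts per gene do not separate these forms.

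On GRCm39, Aspm lies on chromosome 1 (139382510 to 139421829, plus strand, ENSMUSG00000033952) and Wdr62 on chromosome 7 (29939563 to 29979844, minus strand, ENSMUSG00000037020). Cdk5rap2 (70135093 to 70328680, minus strand, ENSMUSG00000039298) and Stil (114857356 to 114900393, plus strand, ENSMUSG00000028718) are on chromosome 4. Cep135 (76736545 to 76794313, plus strand, ENSMUSG00000036403) and Cit (115983337 to 116147006, plus strand, ENSMUSG00000029516) are on chromosome 5. Knl1 (118877600 to 118935982, plus strand, ENSMUSG00000027326) and Cep152 (125405008 to 125467033, minus strand, ENSMUSG00000068394) are on chromosome 2. Mcph1 is on chromosome 8 (18645147 to 18853205, plus strand, ENSMUSG00000039842) and Cenpj on chromosome 14 (56764218 to 56812882, minus strand, ENSMUSG00000064128). All 10 are protein-coding.

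Since several of these genes fell together between populations, as described further on, the 250 bases before the start of the Ensembl canonical transcript are shown for Aspm, which fell most, for Stil and Cep152 of the Plk4 cascade, and for Cdk5rap2, which changed little. They are read from GRCm39, 5′ to 3′ on the strand of the gene, from chr1:139382236-139382485 (plus strand), chr4:114857104-114857353 (plus), chr2:125467092-125467341 (minus) and chr4:70328912-70329161 (minus). Capitals mark the CCAAT box in either direction (CCAAT or its complement ATTGG) and the cell cycle homology region (CHR, searched as TTTGAA or TTCGAA on both strands).

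Aspm: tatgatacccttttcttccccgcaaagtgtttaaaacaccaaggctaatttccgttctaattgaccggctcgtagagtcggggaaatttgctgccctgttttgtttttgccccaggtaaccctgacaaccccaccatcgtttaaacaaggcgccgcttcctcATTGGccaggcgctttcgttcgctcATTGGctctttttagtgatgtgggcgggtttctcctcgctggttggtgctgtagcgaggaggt
Stil: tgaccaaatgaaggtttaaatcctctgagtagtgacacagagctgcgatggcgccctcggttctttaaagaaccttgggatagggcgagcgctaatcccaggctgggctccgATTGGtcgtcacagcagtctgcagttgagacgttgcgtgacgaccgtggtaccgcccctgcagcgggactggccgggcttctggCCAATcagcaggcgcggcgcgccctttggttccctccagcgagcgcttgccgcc
Cep152: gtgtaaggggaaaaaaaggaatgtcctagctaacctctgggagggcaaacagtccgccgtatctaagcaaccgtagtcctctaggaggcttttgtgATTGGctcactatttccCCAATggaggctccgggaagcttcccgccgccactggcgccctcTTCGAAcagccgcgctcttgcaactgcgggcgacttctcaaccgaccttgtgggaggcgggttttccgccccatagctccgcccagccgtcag
Cdk5rap2: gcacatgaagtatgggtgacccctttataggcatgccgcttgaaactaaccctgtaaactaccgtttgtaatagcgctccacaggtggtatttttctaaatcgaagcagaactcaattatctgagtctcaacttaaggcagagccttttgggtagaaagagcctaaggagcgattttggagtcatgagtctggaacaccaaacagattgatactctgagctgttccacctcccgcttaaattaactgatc

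Motifs were counted over 250 bases before to 50 after the start in 21770 protein-coding genes. A CCAAT box was in the window of 5 of the 10 (Aspm, Wdr62, Stil, Cep135 and Cep152), against 39.9% of all windows, and a CHR in 3 of 10 (Aspm, Knl1 and Cep152), against 18.8%. Aspm and Cep152 had both, as 8.25% of all windows did. In Aspm the CCAAT boxes before the start began at bases -88 and -63, another began at base 14 of the transcript and the CHR at base 32. In Cep152 a CHR of the rarer form TTCGAA, which 2% of all windows hold, began at base -93. An E2F motif (TTTGGCGC, TTTCCCGC or TTCCCGCC on either strand) was in the window of 1 of 10, Cep152, against 4.06% of all. The windows of Cdk5rap2, Cenpj, Mcph1 and Cit held none of these letters. For Cenpj and Cit the canonical transcript starts inside the gene as placed above, and windows at other starts were not searched. Knl1 and Cit, which fell 22.1-fold and 19.9-fold from Ctl RG to Ctl N, are not shown. They held none of these letters in the 250 bases before the start. Cep152, which had both a CCAAT box and a CHR, fell 2.49-fold. With 10 genes, these shares are a description, and whether the motifs bear on the levels was not tested.

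Total counts ran from 15470187 to 34161708 per library. As a check of the labels, 11 radial glia markers summed to between 4440 and 5587 CPM (counts scaled to 1 common library size, with TMM factors) in the 6 RG libraries, against 330 to 398 across IP libraries and 246 to 285 across N libraries. Neuron markers, 11 in number, reached 366 to 419 CPM across RG, 10632 to 11993 across IP and 9772 to 10632 across N libraries. They summed to 10632 to 11993 in Ctl IP against 9772 to 10114.5 in Ctl N. In Epi IP it was 11215 to 11643 against 9780 to 10632 in Epi N. Within each treatment, every IP library thus lay above every N library. Of these 11 markers, 4 were called lower and 2 higher in Ctl N against Ctl IP, beside 7.74% and 2.6% of all genes. The 8 intermediate progenitor markers summed to between 354 and 408 CPM in RG libraries, between 734 and 918 in IP and between 789 and 1014 in N, so their sum did not separate IP from N. In Ctl N against Ctl IP, 5 of the 8 were called lower and 2 higher (Insm1, log2 1.56, and Neurod1, 1.01). Eomes, the transcription factor that defines these cells and the marker with the lowest p in that comparison, stood at 17.4 ± 3.27 CPM in Ctl RG, 122 ± 32.7 in Ctl IP and 10.02 ± 3.44 in Ctl N (SD, n = 3 each). Summed markers of Cajal-Retzius cells lay between 10.9 and 13.8 CPM in RG, between 266 and 427 in IP and between 36.2 and 58.2 in N. Interneuron markers, 8 in number, lay between 8.27 and 23.2 CPM in RG, between 115 and 222 in IP and between 11.1 and 162 in N, where libraries of the same group lay far apart. In Ctl IP against Ctl RG, 6 of these 8 were called higher. Summed erythroid markers ranged over 26.3 to 65.5 CPM in RG, over 46.2 to 100.03 in IP and over 47.8 to 224 in N, and 6 of 7 tested were called higher in Ctl N against Ctl RG. The mitochondrial share of counts was 2.68% to 5.06% in RG libraries, 4.91% to 9.30% across IP and 5.57% to 9.54% across N libraries, and within each replicate number and treatment it was higher in IP and in N than in RG. None of the markers of any list was at 0 throughout a group. The third Ctl IP library was the lowest of its group for Aspm, Stil, Cep152, Knl1, Cit and Cenpj, and without it the same number of genes, 9, was called in Ctl IP against Ctl RG. A lower level in IP or N can mean fewer dividing cells among those isolated or less RNA in each of them, and in bulk RNA these cannot be told apart. The part of these other cell types and of the mitochondrial share in the population differences below was not tested.

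**Figure D1:**
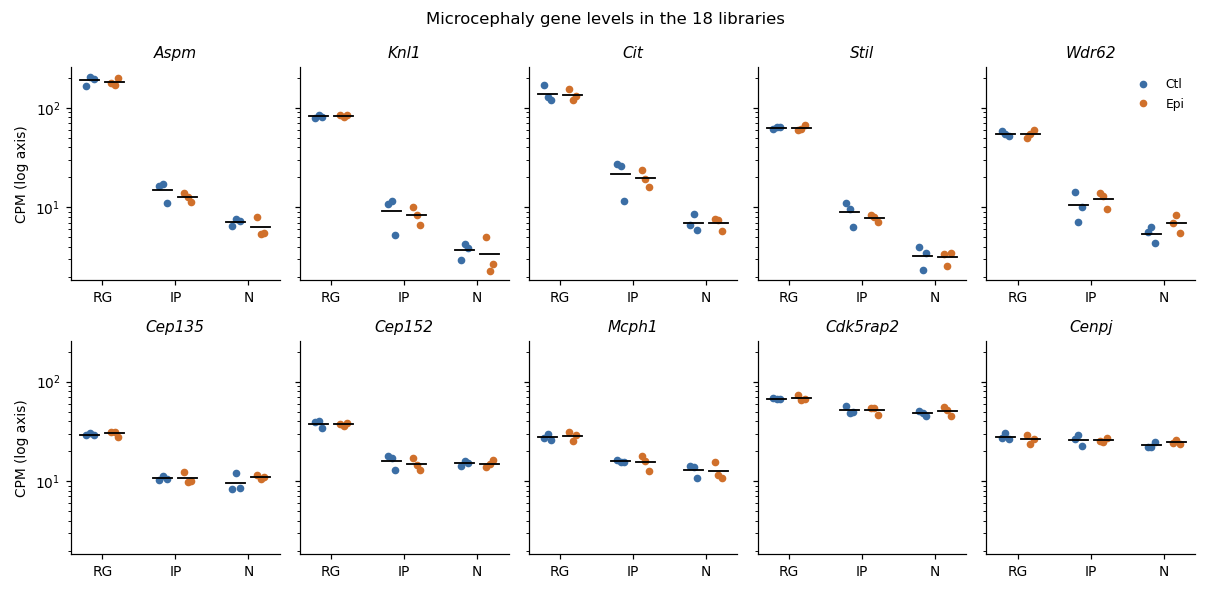
Levels of the 10 genes in CPM on a log axis, by population, with control libraries in blue, EPIREGULIN libraries in orange and a bar at the mean of 3 libraries. Aspm, Knl1, Cit, Stil and Wdr62 drop from RG to IP and again to N, Cep135, Cep152 and Mcph1 drop mainly from RG to IP, and Cdk5rap2 and Cenpj stay within a narrow band.

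Of the 10 genes, 9 were lower in IP than in RG in control cultures, and the sizes of the drop lay far apart. Aspm fell 12.8-fold and Cdk5rap2 fell 1.31-fold, while Cenpj did not pass the test. Over all 29355 genes tested with edgeR's quasi-likelihood test, 18.6% were called lower at an adjusted p under 0.05. The median log2 fold change of the 10 genes was -1.92, against -0.06 over all genes tested. In N against RG the same count was 9 of 10 lower, with 17.7% of all genes called lower and a median of -2.47 against 0.06. In N against IP, 5 of 10 were lower (Aspm, Wdr62, Stil, Knl1 and Cit), with 7.74% of all genes called lower and a median of -0.62 against 0.03. A fit blocked on replicate number called the same number of members between N and IP, 5, and 4652 genes in place of 3035. No member was called higher in these comparisons, where 22.7%, 21% and 2.6% of all genes were.

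The spindle pole gene Aspm stood at 167, 203 and 195 CPM in the 3 Ctl RG libraries, at 16.2, 17.1 and 11.04 in Ctl IP and at 6.45, 7.65 and 7.26 in Ctl N. Every RG library was above every IP library and every IP library above every N library. Such a gap with the population named first lower was found for 9, 6 and 10 of the 10 genes in IP against RG, N against IP and N against RG, and for 22.5%, 12.8% and 21.4% of all genes. The log2 fold change was -3.68 ± 0.17 (SE) from RG to IP (adjusted p = 5.46e-14, edgeR) and -1.05 ± 0.17 from IP to N (adjusted p = 0.000127). In N against RG, Aspm was 26.4-fold lower, and 0.613% of all genes had a more negative log2 fold change.

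Wdr62, which works beside Aspm at the spindle pole, was lower in level and fell less. Its control libraries held 57.9, 54.4 and 51.6 CPM in RG, 14.1, 7.14 and 10.02 in IP and 5.56, 6.32 and 4.37 in N. The groups again did not overlap, although the 3 IP libraries spread more widely than those of RG. Wdr62 was 5.20-fold lower in IP than in RG (log2 -2.38 ± 0.20, adjusted p = 1.76e-09, edgeR) and 1.95-fold lower in N than in IP (adjusted p = 0.00342).

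Knl1, the kinetochore scaffold that binds checkpoint proteins, stood at 79.5, 84.9 and 81.1 CPM in Ctl RG, at 10.7, 11.4 and 5.19 in Ctl IP and at 2.94, 4.27 and 3.89 in Ctl N. The third IP library was the lowest of its group and still above every N library. The drop was 9.07-fold from RG to IP (log2 -3.18 ± 0.25, adjusted p = 3.75e-10, edgeR) and 2.44-fold from IP to N (adjusted p = 0.00172). The control libraries of Cit held 168, 128 and 119 CPM in RG, 27.2, 25.7 and 11.5 in IP and 6.54, 8.48 and 5.92 in N. Cit had the largest of the 10 differences between N and IP, 3.07-fold (log2 -1.62 ± 0.25, adjusted p = 6.98e-05, edgeR), and was 19.9-fold lower in N than in RG.

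The centriole genes did not move as a group. Stil, which Plk4 phosphorylates to start a new centriole, behaved like the mitotic genes, with 61.5, 63.5 and 63.9 CPM in Ctl RG, 10.97, 9.53 and 6.32 in Ctl IP and 3.97, 2.33 and 3.46 in Ctl N. It was 7.07-fold lower in IP than in RG (log2 -2.82 ± 0.18, adjusted p = 1.63e-11, edgeR) and 2.71-fold lower in N than in IP (adjusted p = 1.71e-05). Its counts in Ctl N were small, 42 to 85 reads per library.

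Cep152, which recruits Plk4, stood at 39.1, 39.8 and 33.9 CPM in Ctl RG, 18.03, 16.9 and 12.997 in Ctl IP and 14.1, 15.8 and 15.3 in Ctl N. The RG libraries were apart from all others, and the IP and N libraries overlapped. The log2 fold change was -1.24 ± 0.14 in IP against RG (adjusted p = 1.62e-07, edgeR). In N against IP it was -0.08 with a 95% interval of -0.38 to 0.22, which did not pass the test. Cep135, a component of the centriole's core, followed the same course, with 28.9, 30.2 and 28.9 CPM in RG, 10.1, 11.3 and 10.4 in IP and 8.37, 12.1 and 8.51 in N. It was 2.77-fold lower in IP than in RG (log2 -1.47 ± 0.15, adjusted p = 2.73e-08, edgeR), and its difference between N and IP had an interval of -0.46 to 0.18.

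Cenpj, which sets centriole length, stood at 27.0, 30.3 and 26.7 CPM in Ctl RG, 26.4, 28.8 and 22.5 in Ctl IP and 21.8, 21.8 and 24.9 in Ctl N. RG and IP libraries overlapped, and the N libraries lay below the RG libraries. The log2 fold change of IP against RG was -0.11 with a 95% interval of -0.38 to 0.15, and that of N against RG was -0.29 ± 0.13 with an adjusted p of 0.0762 (edgeR). In a fit blocked on replicate number, the value was also -0.29 and passed the test, with an adjusted p of 0.0438. RLE factors (adjusted p = 0.0458), DESeq2 (0.0311) and a fit of the compared groups alone (0.0468) called it as well, over a range of 0.0311 to 0.27 among the 14 alternatives.

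Cdk5rap2, the pericentriolar gene of the set, held 68.6, 66.5 and 67.6 CPM in Ctl RG, 57.1, 47.8 and 49.3 in Ctl IP and 51.04, 48.8 and 45.6 in Ctl N. RG libraries lay above all IP and N libraries, which overlapped with each other. The difference between IP and RG was small, a log2 fold change of -0.39 ± 0.11 (adjusted p = 0.00711, edgeR), and without a filter on low counts it missed the threshold (-0.35, adjusted p = 0.0529). The later GENCODE annotation places the pseudogene Ywhaq-ps3 over 2.69% of the exon bases of Cdk5rap2 on the same strand, with 64 to 266 reads per library counted to that pseudogene. Mcph1 stood at 27.3, 29.6 and 26.0 CPM in Ctl RG, 16.2, 15.7 and 15.7 in Ctl IP and 14.3, 14.0 and 10.8 in Ctl N. Its log2 fold change was -0.80 ± 0.16 in IP against RG (adjusted p = 0.000295, edgeR) and -1.09 ± 0.16 in N against RG (adjusted p = 8.69e-06). Angpt2, which lies on the opposite strand within Mcph1, had 6 to 85 reads per library, and these unstranded libraries cannot assign reads to a strand where exons of both genes overlap.

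**Figure D2:**
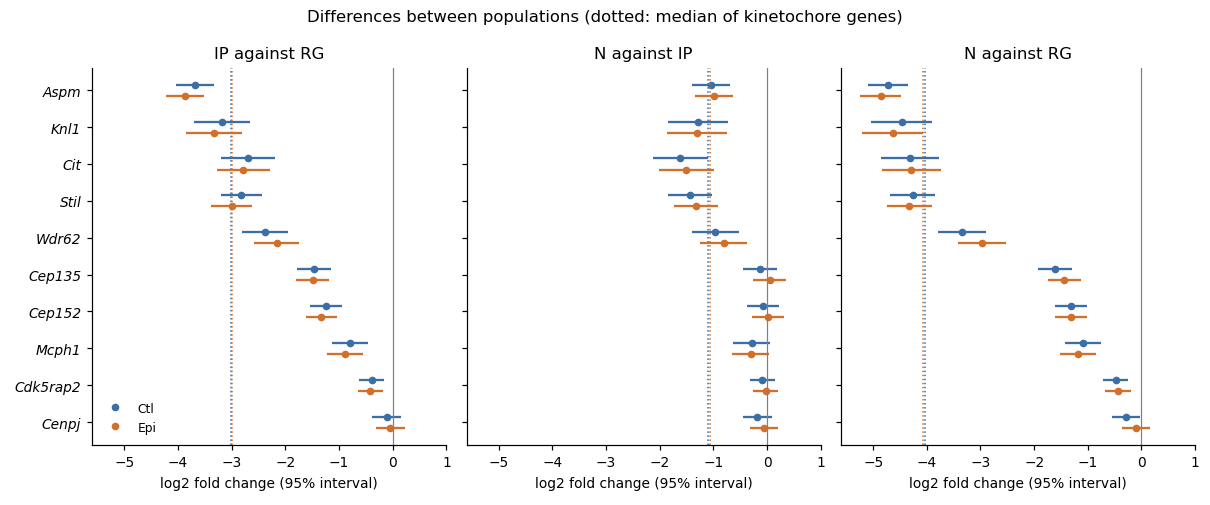
Log2 fold changes with 95% intervals from the edgeR fit for IP against RG, N against IP and N against RG, in control (blue) and EPIREGULIN (orange) libraries, with dotted lines at the median of 23 kinetochore and spindle checkpoint genes. In N against RG, Aspm, Knl1, Cit and Stil lie below the kinetochore median of -4.04, and Cdk5rap2 and Cenpj lie near 0.

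Per kilobase of the GENCODE canonical transcript, the order of the 10 levels was not the same in the 3 populations. In Ctl RG, Aspm was first with 19.03 ± 1.93 CPM per kb, Cit followed with 14.54 ± 2.79, then came Stil with 11.9, Wdr62 with 11.4 and Knl1 with 10.4. Aspm and Cit overlapped between libraries, as did Stil and Wdr62. Cep152 (6.46), Cenpj (6.42), Cdk5rap2 (5.59), Cep135 (5.30) and Mcph1 (2.88) were lower than these 5 in every library. The lengths come from a later annotation than the counts. It ends Mcph1 at base 18858114 in place of 18853205, and Angpt2 shares 14.6% of the exon bases of Mcph1 there. The length of Mcph1 may therefore include bases whose reads were not counted to it, and this was not tested. In Ctl N, Cenpj was first with 5.23 ± 0.408 CPM per kb, followed by Cdk5rap2 with 4.01 ± 0.229 and Cep152 with 2.59 ± 0.154, and these did not overlap. Cit (0.734), Aspm (0.720), Stil (0.614) and Knl1 (0.468) stood last in Ctl N, each overlapping with the next. In Ctl IP, Cenpj and Cdk5rap2 also led, at 5.94 and 4.26 CPM per kb, and from Cep152 at 2.74 down to Knl1 at 1.15 each gene overlapped with the next. The control N level was 3.78% of the control RG level for Aspm, 4.52% for Knl1, 5.05% for Cit, 5.17% for Stil and 9.91% for Wdr62. It was 32.9% for Cep135, 40.1% for Cep152, 47.1% for Mcph1, 71.8% for Cdk5rap2 and 81.6% for Cenpj.

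The same population differences were measured in the EPIREGULIN cultures, which are other libraries. In IP against RG, 9 of 10 genes were lower, with 19.6% of all genes called lower and 23.2% higher. In N against RG it was 9 of 10, with 18.3% lower and 21.4% higher, and in N against IP 5 of 10, with 8.16% lower and 2.8% higher. The 5 were Aspm, Wdr62, Stil, Knl1 and Cit, as in control cultures. Aspm held 178, 171 and 199 CPM in Epi RG, 13.7, 12.5 and 11.3 in Epi IP and 7.97, 5.35 and 5.49 in Epi N, again without overlap between populations. Groups with the population named first lower and no overlap were found for 9, 5 and 9 genes in these 3 comparisons (IP against RG, N against IP, N against RG), and for 25.4%, 16% and 22.6% of all genes. Knl1 held 85.0, 80.7 and 84.2 CPM in Epi RG, 9.92, 8.33 and 6.59 in Epi IP and 5.02, 2.30 and 2.69 in Epi N. Cit held 154, 120.1 and 133 CPM in Epi RG, 23.6, 19.4 and 16.1 in Epi IP and 7.62, 7.47 and 5.70 in Epi N. Both were lower at each step, as was Stil with 59.4, 60.7 and 67.1 CPM in Epi RG, 8.36, 7.98 and 7.04 in Epi IP and 3.35, 2.56 and 3.43 in Epi N. Wdr62 held 49.4, 54.8 and 59.1 CPM in Epi RG and 13.9, 13.1 and 9.505 in Epi IP.

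The genes with smaller drops kept them in the EPIREGULIN cultures. Cep152 held 37.2, 35.8 and 38.2 CPM in Epi RG, 16.9, 14.53 and 12.8 in Epi IP and 13.9, 14.9 and 16.1 in Epi N, and Cep135 held 31.3, 31.3 and 27.6, then 12.3, 9.75 and 10.1, then 11.6, 10.6 and 11.1. In both, RG stood apart and IP overlapped with N. Mcph1 averaged 28.6 ± 2.82, 15.5 ± 2.79 and 12.5 ± 2.53 CPM (SD, n = 3) in Epi RG, IP and N, and Cdk5rap2 68.8 ± 4.23, 51.7 ± 4.87 and 50.8 ± 5.31. Cenpj held 29.1, 23.5 and 26.7 CPM in Epi RG and 24.1, 26.05 and 23.7 in Epi N, with overlap, and its log2 fold change there was -0.10 with an interval of -0.36 to 0.16. Wdr62 was 1.75-fold lower in Epi N than in Epi IP (adjusted p = 0.0105, edgeR). Its adjusted p was 0.0582 without the first Epi IP library and 0.0699 without the third Epi N library.

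The question of the study was what EPIREGULIN does to cortical progenitors, and none of the 10 genes was called between Epi and Ctl in any population. The edgeR test called 0 of 29355 genes (0%) in RG, IP or N, and DESeq2 and limma voom also called 0. At an unadjusted p under 0.05, 1.63% of all genes passed in RG, 1.82% in IP and 2.56% in N, and 0 of the 10 in each. These shares leave out the pairing by replicate number. In a fit blocked on replicate number, such genes rose from 478 to 783 in RG, from 535 to 952 in IP and from 752 to 1211 in N. That fit also called 0 genes. Aspm averaged 188 ± 19.1 CPM in Ctl RG and 183 ± 14.4 in Epi RG (SD, n = 3 each), and 14.8 ± 3.26 in Ctl IP and 12.5 ± 1.198 in Epi IP. The Ctl and Epi libraries overlapped for all 10 genes in all 3 populations, where 5.42%, 5.33% and 6.86% of all genes did not overlap.

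The intervals show which changes these libraries would still allow in the edgeR fit without a replicate block. In RG, the log2 fold changes ran from -0.08 for Cenpj to 0.05 for Mcph1, and all 10 intervals lay within 1.5-fold in either direction. In IP, values ran from -0.23 for Aspm (interval -0.56 to 0.11) to 0.21 for Wdr62 (-0.21 to 0.63), with 7 of 10 intervals within 1.5-fold and 10 within 2-fold. In N, Wdr62 had the largest value, 0.36 with an interval of -0.09 to 0.81 and an unadjusted p of 0.111 (edgeR), and its Epi libraries held 6.87, 8.31 and 5.54 CPM. Wdr62 was higher in Epi in 3 of 3 pairs of equal replicate number in N, 1 of 3 in IP and 2 of 3 in RG. Cep152 was lower in Epi in 7 of 9 pairs, with a mean log2 fold change over the 3 populations of -0.05 and an interval of -0.22 to 0.12. The difference of the treatment effect between populations did not pass for any of the 10, and its intervals over all 3 pairs of populations reached from -0.91 (Knl1, N minus RG) to 0.97 (Wdr62, N minus RG). Both stayed within 2-fold, and 0 of 29355 genes passed this test for any pair or for the mean effect. At an unadjusted p under 0.05, 1.51%, 1.74% and 1.63% of all genes passed for IP minus RG, N minus IP and N minus RG, and 2.86% for the mean, again without the block.

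**Figure D3:**
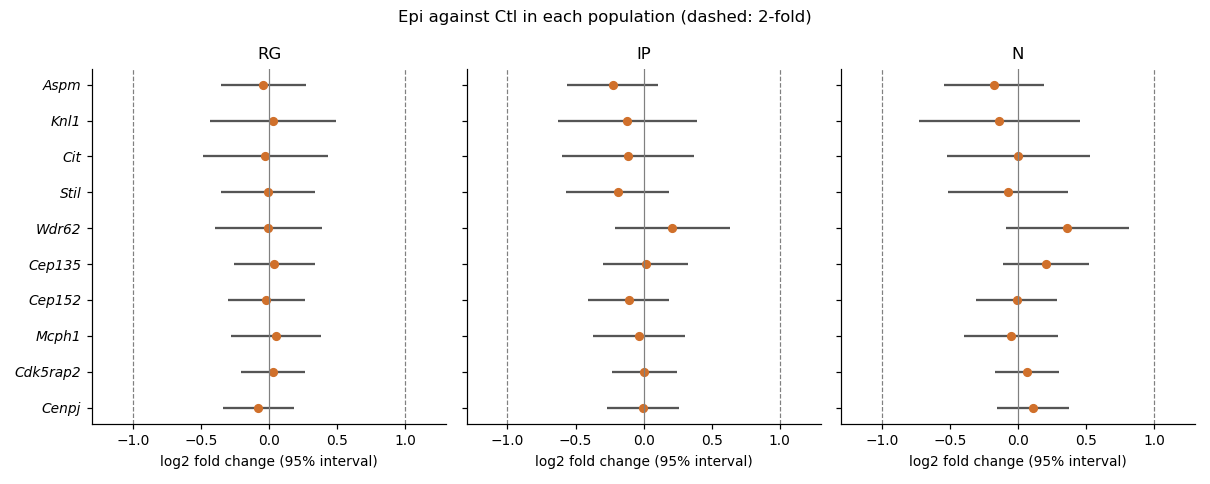
Log2 fold changes of Epi against Ctl with 95% intervals for the 10 genes in RG, IP and N, with dashed lines at 2-fold. Each interval crosses 0 and lies between the 2-fold lines, and Wdr62 in N reaches the highest bound at 0.81.

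Partners of the 10 genes at the centriole differed in the size of their drop. Plk4, the kinase that Cep152 recruits, fell from 70.1 ± 13.1 CPM in Ctl RG to 10.99 ± 2.64 in Ctl IP (log2 -2.68 ± 0.19, adjusted p = 6.19e-11, edgeR), a larger drop than that of Cep152. Sass6, the cartwheel protein that Stil binds, went from 16.1 ± 3.50 to 6.56 ± 0.657 CPM (log2 -1.28, adjusted p = 3.32e-06), and Cep192 from 136 ± 4.46 to 65.6 ± 6.65 (log2 -1.05). Cep63 differed little, at 34.5 ± 0.853 and 27.6 ± 2.602 CPM (log2 -0.32, adjusted p = 0.042). Of 23 genes of centriole duplication and length other than the 10, 15 were lower in Ctl IP than in Ctl RG and 1 was higher, beside 18.6% and 22.7% of all genes, with a median of -0.61. Cep57 (log2 -1.23) and Poc1a (-2.08) were among the lower ones and Cep120 (0.65) was the higher one. In Ctl N against Ctl IP, 1 was lower and 2 were higher, beside 7.74% and 2.6% of all genes, with a median of -0.00.

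The pericentriolar list, to which the partners of Cdk5rap2 belong, held genes called in both directions. Of 22 genes, 9 were lower and 5 higher in Ctl IP than in Ctl RG, where 18.6% of all genes tested were called lower and 22.7% higher. Its median was -0.19. Pcnt went from 82.3 ± 17.4 to 45.7 ± 11.4 CPM (log2 -0.85 ± 0.16, adjusted p = 0.000188, edgeR). Tubg2, the second gamma-tubulin gene, rose from 2.21 ± 0.444 CPM in Ctl RG to 28.9 ± 10.8 in Ctl IP (log2 3.68 ± 0.25, adjusted p = 3.63e-11), while Tubg1 stood at 86.1 ± 4.95 and 79.1 ± 12.8 (adjusted p = 0.567). Nin, which encodes the microtubule anchor ninein, was also higher in IP (log2 4.24 ± 0.36) and then lower in N than in IP (-3.12 ± 0.34, adjusted p = 8.42e-07), and Cep170 was higher in IP (1.96). Nedd1, which brings gamma-tubulin to the spindle, was lower (-2.47). Of 8 augmin subunits, which branch spindle microtubules, 7 were lower in IP, with a median of -1.26, beside 18.6% of all genes. In N against IP 0 of 8 were called, in a comparison that called 7.74% of all genes lower and 2.6% higher. Of 16 genes of appendages and the ciliary base, 5 were lower and 4 higher in IP, beside 18.6% and 22.7% of all genes, with a median of -0.00. Sdccag8 (log2 1.26) and Ttbk2 (1.27) were higher and Cep89 (-1.32) was lower.

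Of 29 genes of the spindle poles and spindle orientation, 10 were lower and 10 higher in Ctl IP than in Ctl RG, beside 18.6% and 22.7% of all genes. Tpx2, which activates Aurora A, went from 202 ± 29.6 to 17.4 ± 3.62 CPM (log2 -3.55 ± 0.17, adjusted p = 6.26e-14, edgeR) and Aurka from 110.4 ± 13.5 to 8.79 ± 2.57 (log2 -3.64), close in size to Aspm. Plk1 (-3.29) and Tacc3 (-3.50) were lower too, while Mapk8 (2.02), Clasp2 (1.38) and the dynein heavy chain gene Dync1h1 (0.86) were higher.

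Around Knl1, 21 of 23 kinetochore and checkpoint genes were lower in Ctl IP than in Ctl RG and 0 higher, with a median of -3.01, and 17 of 23 were lower in N against IP. The shares of all genes called lower were 18.6% and 7.74%, and the first of these also stands beside the cytokinesis, condensin and cell cycle counts that follow. Spc25 (log2 -3.29), Bub1b (-3.28) and Knstrn (-3.81) were examples. Zwint, which binds Knl1, was an exception, at 210 ± 30.4 CPM in Ctl RG, 232 ± 22.1 in Ctl IP and 162 ± 7.94 in Ctl N (log2 of IP against RG 0.14, adjusted p = 0.362, edgeR). Around Cit, 16 of 23 cytokinesis genes were lower in IP, with a median of -2.59, and 4 were higher, beside 22.7% of all genes called higher. Kif14, the kinesin that binds citron kinase, went from 43.2 ± 0.684 to 5.52 ± 1.63 CPM (log2 -2.97 ± 0.23, adjusted p = 2.2e-10), and Incenp (-2.91), Birc5 (-3.78) and Ect2 (-3.45) were lower. Near Mcph1, 8 of 9 condensin and condensation genes were lower in IP, with a median of -2.54. Smc2 went from 266 ± 14.6 to 45.9 ± 14.02 CPM and Smc4 from 478 ± 35.5 to 63.4 ± 25.0, larger folds than that of Mcph1. Of 24 tested genes of CDK, cyclin and G2 control, 22 were lower in IP and 0 higher, with a median of -2.30, led by Ccnb1 (-3.88) and Ccna2 (-3.27).

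Of 21 other genes linked to microcephaly that were tested, 10 were lower and 3 higher in Ctl IP than in Ctl RG, beside 18.6% and 22.7% of all genes, with a median of -0.27. The condensin gene Ncaph (log2 -3.15 ± 0.17, adjusted p = 7.33e-13, edgeR), the kinase gene Cdk6 (-3.12) and the helicase gene Mcm5 (-2.81) had the smallest p-values among them. The Polycomb gene Phc1 (0.86), Wdfy3 (0.59) and Atrip (0.61) were higher. None of the genes of any of these 10 lists was called between Epi and Ctl in RG, IP or N.

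**Figure D4:**
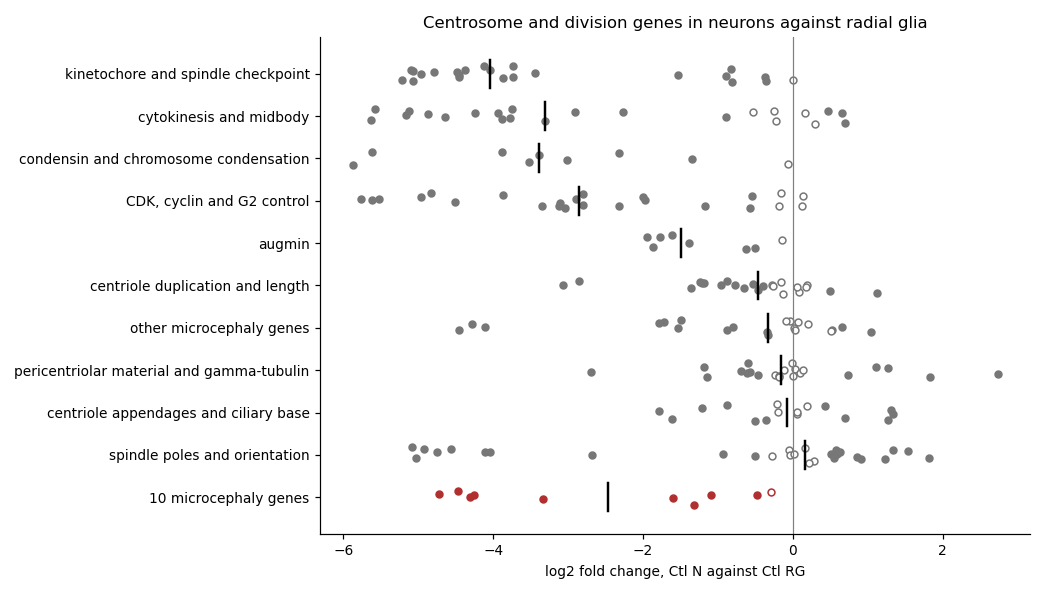
Log2 fold changes of Ctl N against Ctl RG for the 10 microcephaly genes (red) and for 10 lists of centrosome and division genes (grey), with filled points for genes called by edgeR, open points for those not called and a bar at each median. The red points spread from -4.73 for Aspm to -0.29 for Cenpj, across the ranges of the kinetochore list and of the centriole lists.

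Across the 18 libraries, 3 genes per member were named by the highest Pearson r of log2 CPM, among 9922 other genes that averaged log2 CPM 3 or more. These r values include the gap between populations, and libraries of equal replicate number share further variation. Aspm was most like Sgo1 (r = 0.998), Plk1 and Kif22, and Stil most like Melk (0.997), Spag5 and Bub1. Knl1 was closest to Cenpf (0.997), Ticrr and Pask, Cit to Eno1 (0.996), Mki67 and Top2a, and Wdr62 to Hap1 (0.990), Enkd1 and Gtse1. Cep152 was closest to Fras1 (0.994), Lockd and Atad2, Cep135 to Nbn (0.988), Notch2 and Sox1, and Mcph1 to Mrc2 (0.977), Poc1a and Timeless. For Cdk5rap2 they were Rhbdf1 (0.973), Eef1d and Uspl1. Cenpj had no close match, with Usp53 (0.738), Stk24 and Tet1 as its nearest. Among pairs of Aspm, Wdr62, Stil, Knl1 and Cit, r ran from 0.968 to 0.994, and pairs with Cenpj ran from 0.458 to 0.613. After each group's mean was taken off, r over the 18 libraries ran from -0.382 to 0.944 among all 45 pairs, with a median of 0.371. The highest was that of Aspm and Knl1. Among pairs of Aspm, Wdr62, Stil, Knl1 and Cit it ran from -0.0218 (Wdr62 and Stil) to 0.944, with a median of 0.422.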

How the data were processed

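The authors deposited unnormalised counts of reads for each gene in 18 libraries. Per the labels' protocols, an FFPE (fixed tissue) kit was used for extraction and SmartSeq2 for the libraries, which keeps neither strand nor molecular identifiers. The submitters' processing notes name bcl2fastq 2.20.0, cutadapt 2.6, featureCounts 2.0.1 and the build GRCm39; no aligner or strand setting is named there. The 92 spike-in rows were left out of library sizes and tests. From those counts, CPM with TMM factors and tests were computed here in R 4.3.3 with edgeR 4.0.16: filterByExpr over the 6 groups kept 29355 genes, all 10 members among them, and 1 quasi-likelihood fit of 6 group means gave two-sided contrasts, with Benjamini-Hochberg adjustment over all 29355 genes and a threshold of 0.05. Standard errors and 95% intervals come from that fit. Lengths and transcript starts are from GENCODE M39 on GRCm39, matched by Ensembl ID.

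The members and lists were chosen with earlier results of these data known. Named are all 10 members, up to 4 called genes of smallest p per list, partners of the members, and the 3 genes most like each member (log2 of CPM + 0.5). Cep120, Clasp2, Dync1h1, Phc1, Wdfy3, Atrip and Tubg1 fall outside this rule and were chosen after their values were seen. The labels number biological replicates 1 to 3 in each group and do not say what a shared number stands for. Over 11399 genes, libraries of equal number deviated together from their group means in every one of 9 pairs of groups (r 0.104 to 0.679), so the numbers were taken to pair the libraries. DESeq2 1.42.0 and limma 3.58.1 were used as alternatives. Counts were simulated with 1 mean per gene over all groups and without variation shared by replicate number. Only genes that averaged log2 CPM 3 or more were changed. For Epi against Ctl in RG, IP and N, 22%, 28% and 27.5% of genes changed 1.5-fold were recovered. For 2-fold changes it was 93%, 91% and 95%, and for 4-fold changes 100% in each, among 27868 to 27998 genes. Mean levels as low as those of Aspm, Wdr62, Stil, Knl1 and Cit in N were not covered. These ran from 3.12 CPM (Stil, Epi N) to 7.12 CPM (Aspm, Ctl N).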

Additional observations from a re-analysis of the deposited data

Results flagged for a closer look

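Spike-in sequences, which no comparison used, had up to 7 reads in a library and 53 over the 18 libraries. In 7 libraries the count was above 3, the threshold set for this flag. The source of these reads was not tested.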

How the results depend on the processing

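The 10 genes were recomputed with RLE or upper-quartile factors, no filter on low counts, the robust fit, the compared groups alone, DESeq2, limma voom, the replicate number as a block and each library left out, 2110 values in all, of which 7 changed their call and none reversed a called direction. Those 7 are given beside Cdk5rap2, Cenpj and Wdr62 above. With the replicate block, genes called between N and IP rose from 3035 to 4652 in Ctl and from 3216 to 4917 in Epi, and among the 10 genes it changed the call of Cenpj in Ctl N against Ctl RG and no other. With upper-quartile factors the higher share of calls between N and IP went from 25.1% to 37.1% in Ctl and from 25.6% to 43% in Epi, and the median of all genes in Ctl IP against Ctl RG from -0.06 to -0.18; the direction of the called members did not flip. Without single libraries, members called in Epi N against Epi IP were 4 to 5, in Ctl N against Ctl IP 5 to 5, and in each IP or N comparison with RG 9 to 9; genes called were 10836 to 11487 (Ctl IP against Ctl RG), 2229 to 2814 (Ctl N against Ctl IP), 10132 to 10764 (Ctl N against Ctl RG), 11098 to 11462 (Epi IP against Epi RG), 2408 to 2780 (Epi N against Epi IP) and 10364 to 10826 (Epi N against Epi RG). Every treatment comparison stayed at 0. A fit of the compared groups alone could not be had for the mean over 3 populations, which uses all groups. Counts of Stil and Knl1 in N, 42 to 114 reads per library, limit their precision. The cause of these changes was not tested.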
